A study of Mus musculus with 9 samples.

Results

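The 39 genes described here encode the steps of glycolysis, from glucose uptake to lactate export, together with genes of the cellular response to low oxygen. They were chosen by name, as 3 glucose transporters, 3 hexokinases, 7 genes of upper and 6 genes of lower glycolysis, 4 lactate enzymes and carriers, 4 regulators, Hif1a with 2 of its hydroxylases, and 9 hypoxia response genes. The names and roles were set with earlier results of these data known. All 39 names were found among the 28379 genes of the deposited table, and 38 had enough reads to be tested. The exception was Adm, which encodes the vasodilator peptide adrenomedullin and had between 0 and 19 counts per library.

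RNA sequencing was performed on bone marrow-derived macrophages (BMDMs), the precursors that RANKL turns into osteoclasts, from C57BL/6J mice that were 10 weeks old. All cells were kept in M-CSF, a macrophage survival factor, at 20 ng/ml, and were treated for 48 h. There were 3 groups of 3 libraries each. PBS was the control without RANKL, and RANKL was given at 100 ng/ml, either alone or, in the group called RANKL + Vit D + K, together with vitamin D as Calcitriol at 1000 nM and vitamin K as Menaquinone-4, at 20 μM by the labels and 40 μM by the study's methods. Each vitamin alone was not sequenced in these libraries, so the effects of the 2 compounds cannot be told apart. The methods describe pooled RNA, and no source says that the libraries of a group came from separate cultures or animals, so the p-values measure the spread between these libraries only, which may be technical.

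Glycolysis splits glucose into pyruvate in the cytosol, and lactate dehydrogenase can turn pyruvate into lactate, which leaves the cell through monocarboxylate carriers. Hypoxia-inducible factor (HIF) is a transcription factor whose α subunit is marked for destruction by prolyl hydroxylases when oxygen is present. When the subunit persists, in low oxygen or in activated myeloid cells, HIF raises many glycolytic genes along with genes for vessel growth, collagen modification and mitochondrial turnover.

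Between 65915112 and 68229647 reads were counted per library, so that 3 counts, the floor used here for detection, came to no more than 4.55e-06% of each library, a limit for counting error only. The summed FPKM of 9 osteoclast markers was 22.9 to 30.4 with PBS, 487 to 1018 with RANKL and 58.2 to 93.1 with RANKL + Vit D + K. Against RANKL, 8 of the 9 fell with the vitamins. Atp6v0d2 overlapped, at 22.35 to 45.13 FPKM with RANKL and 38.78, 12.43 and 21.96 with the vitamins. Against PBS, 4 of the 9 were higher and 1 lower with the vitamins. The summed FPKM of 8 macrophage markers was 26480 to 30690 with PBS, 16730 to 24340 with RANKL and 4573 to 11610 with RANKL + Vit D + K, most of it from Lyz2. All 8 macrophage markers were detected in every group, the lowest being Fcgr1 at 1.28 to 1.43 with the vitamins. Against RANKL, 5 of the 8 fell with the vitamins and Cd68 rose. The summed level of 9 neutrophil markers was 11.1 to 128 with PBS, 11.3 to 148 with RANKL and 0.551 to 1.72 with RANKL + Vit D + K, where 6 of the 9 were at 0 in every library. Markers of B cells and dendritic cells were under 1 FPKM in sum in every library and lower with the vitamins, at 0 to 0.0441 and 0.00593 to 0.0639, than with RANKL, at 0.423 to 0.795 and 0.266 to 0.413. Among stromal markers Pdgfrb and Col1a1 fell with the vitamins and Runx2 rose, and the sum stayed at 1.12 to 1.79 FPKM in all libraries. These lists moved with the groups that are compared throughout, and their part in the results was not tested. Replicate 2 of the vitamin group stood apart from replicates 1 and 3. On TMM-normalized CPM it was the library farthest from its group's median for 32 of the 38 members tested and for 58.3% of all 17002 genes tested. Results of members that this library changed in call, or moved by over 0.4 on the log2 scale, are given with and without it.

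HIF binds a short core, ACGTG or GCGTG, and the 250 bases before each RefSeq start site (GRCm38.p6) were searched for it on both strands. Of the 39 members 37 had such a window, Slc2a3 and Ndrg1 being absent from the table used, and 34 of the 37 (91.9%) held the core in at least 1 window, compared with 41.5% of 27025 genes and 59.2% of the 10973 genes that were tested for expression and matched by name. ACGTG alone was present in 59.5% of members, 18.5% of genes and 24.3% of the genes tested, and GCGTG in 67.6%, 30.9% and 48.0%. The E-box CACGTG, which contains ACGTG and is counted in both, was present in 16.2%, 6.86% and 9.61%. A gene can have several windows, and members had more of them, 55 for 37 genes. Counted per window, either core was in 78.2% of member windows and 53.5% of those of the genes tested, ACGTG in 47.3% and 20.9%, GCGTG in 52.7% and 42.6%, and CACGTG in 10.9% and 8.03%. These shares are a description of the letters in these windows. The core was in the window of 12 of 13 members that rose with the vitamins compared with RANKL, 6 of 6 that fell and 15 of 17 that were not called. With so few windows lacking it, these counts cannot relate the core to a direction of change. The sequences of 4 members are shown, the 3 that fell with RANKL and rose with the vitamins (Slc2a1, Hk2 and P4ha2) and the member with the deepest fall (Ldhb), with the core of either strand in capitals. They run 5′ to 3′ along the gene's own strand and end at the base before the start site. The window of Slc2a1 is chr4:119108495-119108744 on the plus strand, with cores 61 and 36 bases before the start. That of Hk2 is chr6:82774455-82774704 on the minus strand, with cores at 226 and 52. That of P4ha2 is chr11:54100674-54100923 on the plus strand, with cores at 107, 78 and 69. That of Ldhb is chr6:142507958-142508207 on the minus strand, with 1 core at 126.
Slc2a1: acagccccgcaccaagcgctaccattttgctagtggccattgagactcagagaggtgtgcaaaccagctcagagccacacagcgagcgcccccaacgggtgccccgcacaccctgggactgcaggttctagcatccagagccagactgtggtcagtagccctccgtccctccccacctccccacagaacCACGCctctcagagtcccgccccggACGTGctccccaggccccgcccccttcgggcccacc
Hk2: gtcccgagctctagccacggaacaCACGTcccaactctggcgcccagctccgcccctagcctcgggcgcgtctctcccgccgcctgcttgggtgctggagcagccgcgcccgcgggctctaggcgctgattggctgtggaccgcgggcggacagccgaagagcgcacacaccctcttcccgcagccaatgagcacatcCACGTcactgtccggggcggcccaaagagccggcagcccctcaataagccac
P4ha2: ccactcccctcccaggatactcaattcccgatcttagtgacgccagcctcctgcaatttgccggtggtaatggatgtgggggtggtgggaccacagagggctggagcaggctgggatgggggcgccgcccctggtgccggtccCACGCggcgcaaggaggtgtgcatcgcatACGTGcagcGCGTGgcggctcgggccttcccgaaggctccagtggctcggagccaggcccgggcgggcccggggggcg
Ldhb: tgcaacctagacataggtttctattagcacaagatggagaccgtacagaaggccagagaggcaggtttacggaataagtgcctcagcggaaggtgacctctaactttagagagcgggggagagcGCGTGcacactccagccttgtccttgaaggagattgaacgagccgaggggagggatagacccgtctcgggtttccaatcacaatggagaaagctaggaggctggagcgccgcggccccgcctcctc

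The first comparison, RANKL against PBS, asks how the members differ when macrophages are driven towards osteoclasts. P4ha2, Slc2a1 and Hk2 fell with RANKL, and no member rose past the threshold of an adjusted p of 0.05 in edgeR's quasi-likelihood test. At an unadjusted p under 0.05 in edgeR 4 members were higher and 8 lower, where 3163 of 17002 genes passed in either direction. DESeq2 called 1 member higher (Pdk3) and 3 lower, against 1056 higher and 643 lower of 16973 genes. Limma on FPKM called 0 members higher and 2 lower. The 3 lower calls were 7.89% of the 38 members, against 3.61% of all genes called in either direction and 1.26% called lower. In bulk RNA, fewer cells of a type and less RNA per cell cannot be told apart. The second comparison, RANKL + Vit D + K against RANKL, asks what the vitamins change in that process. Here 15 members rose, 6 fell and 17 did not pass, which is 55.3% called against 33.7% of all genes (16.4% higher and 17.2% lower). The members were chosen with earlier results of these data known, so this difference in shares is a description and not a test. The median log2 fold change was 0.46 over the members and -0.04 over all genes. The third comparison, RANKL + Vit D + K against PBS, called 9 members higher and 6 lower, 39.5% against 40.8% of all genes (19.8% higher and 21% lower), so the share of members called was close to the background there. With 1 library left out the counts moved by over 1.5 times in places, RANKL against PBS having 4 members higher without vitamin replicate 2 and 1 lower without any of the 3 PBS libraries, RANKL replicate 1 or 2 or vitamin replicate 3. The vitamins against RANKL had 10 lower without vitamin replicate 2, and the vitamins against PBS 15 higher without vitamin replicate 1. Groups did not overlap in FPKM for 10 members that were higher and 4 that were lower with RANKL against PBS (35.2% of all genes in either direction), 15 and 7 with the vitamins against RANKL (46.2% of all genes), and 10 and 6 with the vitamins against PBS (52.5% of all genes). The comparisons share libraries, and their values are given side by side for that reason.

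**Figure D1:**
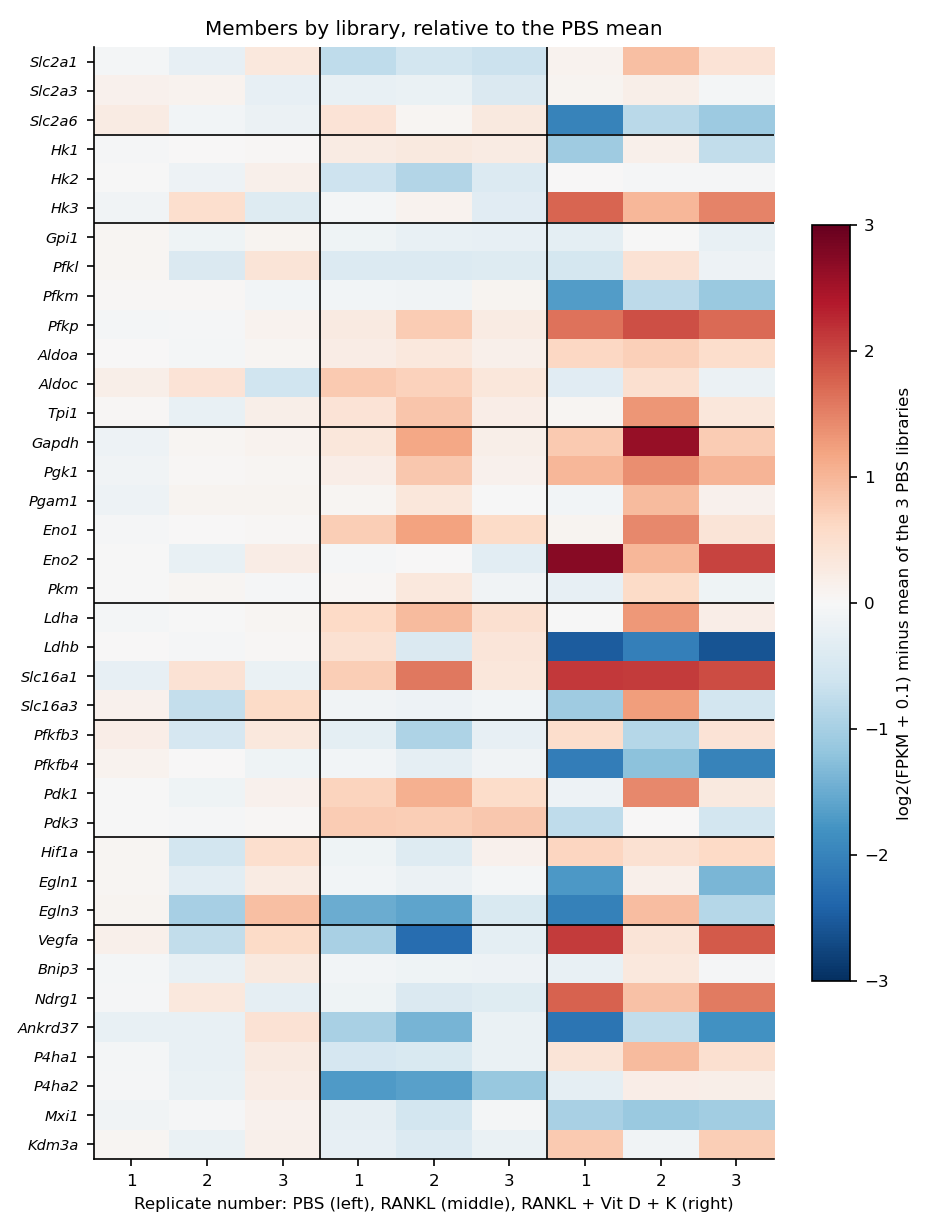
Members tested (rows, grouped by role with lines between roles) in each of the 9 libraries (columns), coloured by log2(FPKM + 0.1) minus the mean of the 3 PBS libraries. Slc2a1, Hk2 and P4ha2 are below PBS in the RANKL libraries, Ldhb and Pfkfb4 are lowest in the vitamin libraries, and vitamin replicate 2 has higher Gapdh, Eno1 and Ldha than replicates 1 and 3.

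Glucose transport divided between its carriers. Slc2a1, which encodes the widespread glucose carrier GLUT1 (chromosome 4), had an FPKM of 20.7, 18.3 and 26.8 with PBS, 12.8, 14.8 and 13.8 with RANKL, and 23.4, 40.3 and 28.6 with RANKL + Vit D + K. All RANKL libraries were below all libraries of the other groups, and the PBS and vitamin libraries overlapped. RANKL differed from PBS by a log2 fold change of -0.80 ± 0.18 (SE), with an adjusted p of 0.048 in edgeR, and the vitamins from RANKL by 1.28 ± 0.18, with an adjusted p of 0.0016. The fall with RANKL lay close to the threshold. It did not pass with the replicate number as a block (adjusted p = 0.054), with median-of-ratios size factors (0.054), without the filter on low counts (0.10) or with limma on FPKM (0.12 with either pseudocount), nor without any of the 3 PBS libraries, any of the 3 RANKL libraries or vitamin replicate 3 (adjusted p 0.065 to 0.23). Against PBS the vitamin group differed by 0.49 ± 0.18 (adjusted p = 0.056), which passed without PBS replicate 3 (0.023) or vitamin replicate 1 (0.027) and with DESeq2 (0.037).

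Slc2a6, another member of the hexose carrier family, moved the opposite way. Its FPKM was 17.9, 14.2 and 13.4 with PBS, 19.9, 15.6 and 18.3 with RANKL, and 3.67, 8.47 and 6.98 with the vitamins. Every vitamin library was below every other library, and the log2 fold change was -1.38 ± 0.25 against RANKL (adjusted p = 0.0044) and -1.25 ± 0.25 against PBS (adjusted p = 0.0046). Slc2a3, which encodes the high-affinity carrier GLUT3, was low in every library, at 1.33 to 2.08 FPKM. It was 0.52 ± 0.15 higher with the vitamins than with RANKL (adjusted p = 0.030), a call that was lost without RANKL replicate 1, 2 or 3 or vitamin replicate 1 or 3 (adjusted p 0.059 to 0.10). It was also lost without the filter on low counts (0.065), with limma on log2(FPKM + 0.1) and log2(FPKM + 1) (0.18 and 0.16) and with only these groups in the model (0.060).

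The hexokinases, which trap glucose in the cell by phosphorylation, differed from each other. The FPKM of Hk2, the inducible form, was 16.9, 15.3 and 18.8 with PBS, 11.02, 9.13 and 12.6 with RANKL, and 17.2, 16.6 and 16.6 with the vitamins. The RANKL libraries were lowest, without overlap, and the vitamin libraries lay within the range of PBS. Hk2 fell by 0.76 ± 0.17 on the log2 scale with RANKL (adjusted p = 0.043) and was 0.76 ± 0.17 higher with the vitamins than with RANKL (adjusted p = 0.0088), while the difference between vitamins and PBS was 0.01 ± 0.17 (adjusted p = 0.98). The fall with RANKL was lost without any of the 3 PBS libraries, RANKL replicate 1 or 2, or vitamin replicate 3 (adjusted p 0.064 to 0.19), and without the filter on low counts (0.069). It was kept with the replicate number as a block (adjusted p = 0.016).

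Hk3, the form of myeloid cells, was the most abundant hexokinase on the FPKM scale. Its level was 39.9, 61.2 and 32.9 with PBS, 41.3, 46.4 and 33.9 with RANKL, and 145, 86.6 and 121 with the vitamins. All vitamin libraries were above all others, by 1.71 ± 0.28 against RANKL (adjusted p = 0.0028) and 1.45 ± 0.28 against PBS (adjusted p = 0.0037). Hk1, the housekeeping form, was at 12.1 to 12.7 with PBS and 14.7 to 15.3 with RANKL, and at 5.94, 13.9 and 7.46 with the vitamins. Vitamin replicate 2 lay apart from the other two. The log2 fold change of Hk1 against RANKL was -0.60 ± 0.22 (adjusted p = 0.058) with all libraries and -0.94 ± 0.10 (adjusted p = 9.2e-05) without that library. Against PBS it was -0.47 ± 0.22 (adjusted p = 0.11) and, without it, -0.81 ± 0.09 (adjusted p = 0.00019). DESeq2 and limma called Hk1 lower than with RANKL with all libraries.

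In upper glycolysis the phosphofructokinases, which commit sugar to the pathway, moved apart. Pfkp, the platelet-type subunit, had an FPKM of 4.80, 4.88 and 5.35 with PBS, 6.04, 8.51 and 5.95 with RANKL, and 15.6, 19.3 and 16.5 with the vitamins. No groups overlapped. Pfkp was 1.48 ± 0.13 higher with the vitamins than with RANKL (adjusted p = 0.00032) and 1.79 ± 0.13 higher than with PBS (adjusted p = 0.00013), and the difference between RANKL and PBS was 0.31 ± 0.13 (adjusted p = 0.23). The muscle-type subunit gene Pfkm was at 7.30 to 8.31 FPKM in the 6 PBS and RANKL libraries and at 2.38, 4.48 and 3.58 with the vitamins. It fell by 1.01 ± 0.18 on the log2 scale against RANKL (adjusted p = 0.0040) and by 1.16 ± 0.18 against PBS (adjusted p = 0.0015). Aldoa, which encodes the main aldolase and had the highest FPKM of the upper steps, was 393, 376 and 410 with PBS, 459, 488 and 435 with RANKL, and 600, 641 and 569 with the vitamins. It rose by 0.54 ± 0.10 against RANKL (adjusted p = 0.0049) and 0.64 ± 0.10 against PBS (adjusted p = 0.0015). A further row of the table with the name Aldoa, of another gene identifier, had 0 to 111 counts and was left out. The other genes of these steps, Gpi1, Pfkl, Aldoc and Tpi1, passed in no comparison in edgeR with all libraries, with log2 fold changes from -0.47 to 0.50 for the vitamins against RANKL. Tpi1 was 0.29 ± 0.26 against RANKL with all libraries and -0.08 ± 0.18 without vitamin replicate 2, and it was called higher than with PBS by DESeq2 and without vitamin replicate 1.

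**Figure D2:**
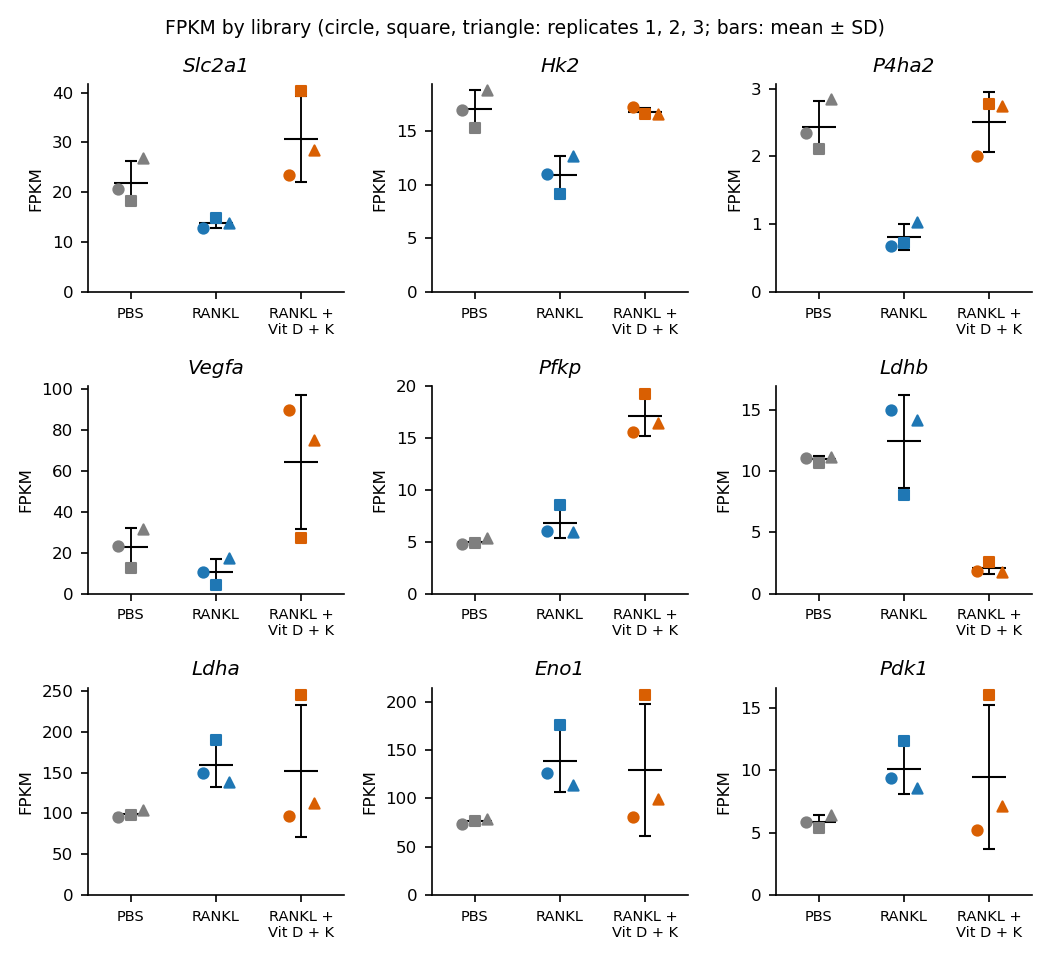
FPKM (vertical axes, each from 0) of 9 members in the PBS, RANKL and RANKL + Vit D + K libraries. Circles, squares and triangles are replicates 1, 2 and 3, and bars are the mean and SD of 3 libraries. The RANKL libraries are lowest for Slc2a1, Hk2 and P4ha2, and vitamin replicate 2 (square) lies above replicates 1 and 3 for Ldha, Eno1 and Pdk1 and below them for Vegfa.

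In lower glycolysis Pgk1 and Eno2 rose with the vitamins. Pgk1, which encodes phosphoglycerate kinase, the first ATP-yielding step, was at 129, 142 and 145 FPKM with PBS, 160, 241 and 152 with RANKL, and 275, 363 and 279 with the vitamins. Its vitamin libraries were all above those of the other groups, by 0.88 ± 0.15 against RANKL (adjusted p = 0.0037) and 1.15 ± 0.15 against PBS (adjusted p = 0.00081). Eno2, the enolase best known from neurons, was at 0.420 to 0.655 FPKM in the 6 PBS and RANKL libraries and at 4.20, 1.19 and 2.54 with the vitamins. It was the member with the second largest rise against RANKL, at 2.59 ± 0.45 (adjusted p = 0.0037), though its level stayed far below that of Eno1.

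The widely expressed enolase Eno1 was at 73.8, 76.5 and 78.5 FPKM with PBS, 127, 176 and 114 with RANKL, and 81.1, 207 and 99.0 with the vitamins. All RANKL libraries were above all PBS libraries, but the log2 fold change of 0.73 ± 0.27 did not pass (adjusted p = 0.18), and it passed without vitamin replicate 2 (0.73 ± 0.13, adjusted p = 0.014). The latter library enters the comparison through the spread that all 9 libraries share. Against RANKL the vitamins differed by 0.01 ± 0.27 in Eno1, and by -0.40 ± 0.15 without that library (adjusted p = 0.056). Against PBS they were 0.74 ± 0.27 higher (adjusted p = 0.051). This passed with DESeq2, with the replicate number as a block (0.041) and without vitamin replicate 1 or 3. It was 0.33 ± 0.15 without vitamin replicate 2 (adjusted p = 0.094). Pkm, the pyruvate kinase gene, had 404, 425 and 402 FPKM with PBS, 418, 510 and 382 with RANKL, and 346, 611 and 378 with the vitamins. The groups overlapped, and its log2 fold changes were -0.04, 0.16 and 0.12 for RANKL against PBS, the vitamins against RANKL and the vitamins against PBS, with adjusted p of 0.93, 0.49 and 0.60 and a sign that changed with the scaling or the library left out. Pgam1 passed in no comparison with all libraries, and was called higher with the vitamins than with PBS without vitamin replicate 1.

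Gapdh, the gene used as reference in the study's RT-qPCR, had an unusually low FPKM of 5.11, 5.85 and 6.05 with PBS, 7.16, 12.8 and 6.39 with RANKL, and 9.80, 35.0 and 9.66 with the vitamins. The log2 fold change in this row was 0.49 ± 0.43 with RANKL compared to PBS (adjusted p = 0.61), 1.15 ± 0.43 for the vitamins against RANKL (adjusted p = 0.068) and 1.64 ± 0.44 for the vitamins against PBS (adjusted p = 0.016). The second passed with DESeq2 (adjusted p = 0.024) and with the replicate number as a block (0.040). Without vitamin replicate 2 it was 0.38 ± 0.24 (adjusted p = 0.22). The third was lost without PBS replicate 1 (adjusted p = 0.060) and with limma on log2(FPKM + 1) (0.050), and its log2 fold change was 0.87 ± 0.23 without vitamin replicate 2 (adjusted p = 0.014). Of the 1943 distinct 50-base words in the Gapdh transcripts of GENCODE M21, 58.4% also occur in transcripts of 218 other genes. The table listed 103 of 113 annotated genes that share at least 50 of these words, and together they held 77813 to 98268 counts with PBS, 116727 to 156520 with RANKL and 174310 to 197910 with the vitamins. The Gapdh row held 1558 to 11141 counts, or 1.67% to 5.33% of the sum, and the highest share was in vitamin replicate 2. How reads with several equal matches were counted is not given in the sources used here, so the value of the Gapdh row is uncertain.

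Summed with its copies, Gapdh was at 1201, 1485 and 1289 CPM with PBS, 1775, 2391 and 1772 with RANKL, and 2711, 3066 and 2690 with the vitamins. The groups did not overlap in any comparison. The ratio of means was 1.49 for RANKL against PBS, 1.43 for the vitamins against RANKL and 2.13 for the vitamins against PBS, each with an exact two-sided permutation p of 0.1, the smallest that 3 libraries against 3 allow. This sum was chosen after the data were seen. Among the other members that share at least 5% of their words with another gene, Eno1 held 88.6% to 89.8% of the counts summed with its copies in its own row, and Pkm 92.9% to 95.8%. The rows of Pgk1, Pgam1, Gpi1, Pfkm, Aldoa, Tpi1, Ldha, Ldhb and Bnip3 held 95.5% or more in every library.

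**Figure D3:**
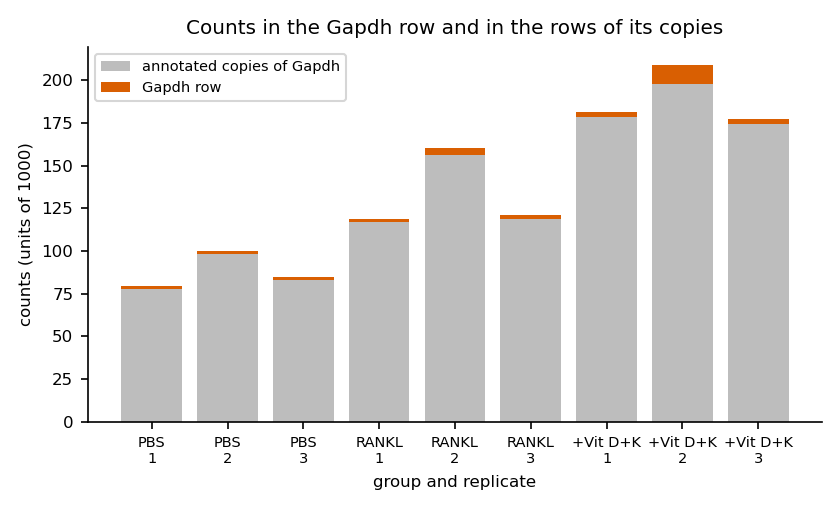
Counts, in units of 1000, in the Gapdh row (orange) and in the rows of 103 annotated genes that share sequence with it (grey), by library. The grey part is by far the larger in every library, the sum is highest in the vitamin libraries, and the orange part is largest in vitamin replicate 2.

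The lactate genes held the deepest fall. Ldhb, the heart-type lactate dehydrogenase subunit that favours the step from lactate to pyruvate, was at 11.1, 10.7 and 11.2 FPKM with PBS, 15.03, 8.07 and 14.2 with RANKL, and 1.87, 2.57 and 1.74 with the vitamins. Every vitamin library was several-fold below every other library. The log2 fold change was -2.47 ± 0.26 against RANKL (adjusted p = 0.00061) and -2.40 ± 0.26 against PBS (adjusted p = 0.00038), which is 5.54-fold and 5.27-fold lower. The Ldhb transcripts share 21% of their 50-base words with 1 other gene, Gm5514, whose row had 0 to 27 counts per library, against 204 to 1768 for Ldhb. Ldha, the muscle-type subunit that favours lactate production, was at 95.3, 97.7 and 104 FPKM with PBS, 149, 189 and 138 with RANKL, and 97.3, 245 and 113 with the vitamins. All RANKL libraries were above all PBS libraries, and vitamin replicates 1 and 3 lay below the RANKL libraries while replicate 2 lay above them. With all libraries the log2 fold change of Ldha was 0.55 ± 0.26 for RANKL against PBS (adjusted p = 0.29), 0.05 ± 0.26 for the vitamins against RANKL (adjusted p = 0.90) and 0.60 ± 0.26 for the vitamins against PBS (adjusted p = 0.089). Without vitamin replicate 2 the first was 0.55 ± 0.10 (adjusted p = 0.015) and the second -0.37 ± 0.12 (adjusted p = 0.028). The third was 0.18 ± 0.11 without vitamin replicate 2 and passed without vitamin replicate 1 (adjusted p = 0.030). The sign of the second also changed without RANKL replicate 3 (-0.02) and with limma on FPKM, so no direction is given for it.

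The monocarboxylate carrier gene Slc16a1 was at 0.924, 1.54 and 0.957 FPKM with PBS, 1.91, 3.52 and 1.42 with RANKL, and 5.12, 5.12 and 4.56 with the vitamins. It rose by 1.28 ± 0.31 against RANKL (adjusted p = 0.013, and 0.056 without RANKL replicate 1) and 2.14 ± 0.32 against PBS (adjusted p = 0.0012). Slc16a3, the carrier tied to lactate export in glycolytic cells, was at 4.66, 23.8 and 6.80 FPKM with the vitamins, on both sides of the RANKL range of 8.98 to 9.39, and passed in no comparison. Its log2 fold change was 0.43 ± 0.51 against RANKL and 0.09 ± 0.51 against PBS, and without vitamin replicate 2 it was -0.47 ± 0.33 and -0.81 ± 0.33, which did not pass either (adjusted p = 0.28 and 0.074).

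Among the regulators, Pfkfb4 and Pdk3 fell with the vitamins. Pfkfb4, whose enzyme sets the level of the activator of phosphofructokinase, was at 8.90 to 11.7 FPKM in the 6 PBS and RANKL libraries and at 2.48, 4.55 and 2.63 with the vitamins. It fell by 1.47 ± 0.19 on the log2 scale against RANKL (adjusted p = 0.0011) and by 1.75 ± 0.19 against PBS (adjusted p = 0.00037). Its relative Pfkfb3 was at 9.50, 5.81 and 10.3 with PBS, 6.74, 4.30 and 6.95 with RANKL, and 11.9, 4.58 and 11.1 with the vitamins. Replicate 2 was the lowest of its group in all 3 groups, and Pfkfb3 did not pass in any comparison with all libraries and no replicate block (0.79 ± 0.41 against RANKL, adjusted p = 0.17). Against RANKL it passed without vitamin replicate 2 (1.15 ± 0.29, adjusted p = 0.011) and with the replicate number as a block (0.69 ± 0.18, adjusted p = 0.026).

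Pyruvate dehydrogenase kinases hold pyruvate back from the mitochondrial cycle. Pdk3 was at 3.86, 3.77 and 4.01 FPKM with PBS, 6.60, 6.56 and 6.82 with RANKL, and 2.24, 3.91 and 2.63 with the vitamins. The RANKL libraries were above all others. Pdk3 fell by 1.06 ± 0.17 on the log2 scale with the vitamins against RANKL (adjusted p = 0.0029). Against PBS, RANKL was 0.65 ± 0.17 higher (adjusted p = 0.074), and this passed without vitamin replicate 2 (adjusted p = 0.015). The vitamins were -0.40 ± 0.17 against PBS (adjusted p = 0.088), and -0.58 ± 0.14 without that library (adjusted p = 0.0083). Pdk1, the HIF-induced form, was at 5.81, 5.37 and 6.42 with PBS, 9.38, 12.3 and 8.58 with RANKL, and 5.24, 16 and 7.14 with the vitamins. Its groups shared the layout of Ldha and Eno1, with RANKL above PBS in every library and vitamin replicate 2 above all others. The log2 fold change of Pdk1 was 0.65 ± 0.30 for RANKL against PBS (adjusted p = 0.30) and 0.02 ± 0.30 for the vitamins against RANKL (adjusted p = 0.97), and without vitamin replicate 2 these were 0.65 ± 0.14 (adjusted p = 0.027) and -0.48 ± 0.16 (adjusted p = 0.037). For the vitamins against PBS it was 0.66 ± 0.30 (adjusted p = 0.11, and 0.026 without vitamin replicate 1), and 0.16 ± 0.16 without vitamin replicate 2. With only PBS and RANKL in the model, Eno1, Ldha, Pdk1 and Pdk3 were called higher with RANKL.

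Hif1a, the oxygen-regulated subunit itself, was at 28.4, 18.4 and 38.5 FPKM with PBS, 25.0, 20.7 and 29.7 with RANKL, and 42.7, 37.6 and 41.3 with the vitamins. The vitamin libraries were above all RANKL libraries and overlapped with PBS. The rise of 0.84 ± 0.27 against RANKL lay close to the threshold (adjusted p = 0.041) and was lost without PBS replicate 1, any of the 3 RANKL libraries or vitamin replicate 1 or 3 (adjusted p 0.054 to 0.12), without the filter on low counts (0.067) and with limma on log2(FPKM + 1) (0.053). It was kept under the other 8 of 16 alternatives, at 0.0088 with the replicate number as a block. The difference from PBS, 0.54 ± 0.27, did not pass with all libraries and no replicate block (adjusted p = 0.14). It passed without PBS replicate 3 (0.033) and with the replicate number as a block (0.021). That between RANKL and PBS did not pass (-0.30 ± 0.27, adjusted p = 0.62). HIF is set mainly by the stability of its protein, which RNA does not measure.

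The prolyl hydroxylase genes varied several-fold between the vitamin libraries. Egln1, the main oxygen sensor of this family, was at 11.9 to 17.5 FPKM in the 6 PBS and RANKL libraries and at 4.38, 16.3 and 5.68 with the vitamins. Its log2 fold change against RANKL was -0.55 ± 0.38 (adjusted p = 0.29) and, without vitamin replicate 2, -1.24 ± 0.19 (adjusted p = 0.00083). Against PBS these were -0.80 ± 0.38 (adjusted p = 0.12) and -1.48 ± 0.19 (adjusted p = 0.00031). Egln3, itself a HIF target, was at 0.941, 0.400 and 1.76 with PBS, 0.251, 0.229 and 0.623 with RANKL, and 0.142, 1.77 and 0.450 with the vitamins. All groups overlapped, and the adjusted p was 0.37, 0.33 and 0.69 for the 3 comparisons. The log2 fold change of the vitamins was 1.13 ± 0.84 against RANKL and -0.47 ± 0.83 against PBS, and without vitamin replicate 2 it was -0.12 ± 0.75 and -1.72 ± 0.78.

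Of the 8 hypoxia response genes tested, 5 rose and 1 fell with the vitamins against RANKL, which is 62.5% and 12.5%, where 16.4% and 17.2% of all genes did. This list too was set with earlier results of these data known, so these shares are a description and not a test. Vegfa, the vascular growth factor gene, was at 23.4, 12.6 and 31.6 FPKM with PBS, 10.6, 4.25 and 17.1 with RANKL, and 89.8, 27.4 and 75.3 with the vitamins. Its vitamin libraries were all above the RANKL libraries, replicate 2 being the lowest in each group. This was the largest rise of any member, 2.75 ± 0.64 or 6.74-fold (adjusted p = 0.011). Against PBS the vitamins were 1.57 ± 0.61 higher (adjusted p = 0.068). This passed at 0.044 without RANKL replicate 2, at 0.016 without vitamin replicate 2 and at 0.013 with DESeq2. It also passed at 0.0037 with the replicate number as a block. RANKL was 1.18 ± 0.61 below PBS, which did not pass (adjusted p = 0.35) unless the replicate number was a block (adjusted p = 0.026).

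P4ha1 and P4ha2 encode collagen prolyl hydroxylase subunits. P4ha2 was at 2.35, 2.11 and 2.85 FPKM with PBS, 0.679, 0.720 and 1.03 with RANKL, and 2.001, 2.77 and 2.75 with the vitamins. The RANKL libraries lay below all others, and the vitamin and PBS libraries overlapped. It was the member with the largest fall with RANKL, by 1.70 ± 0.23 on the log2 scale or 3.24-fold (adjusted p = 0.0070), and it was 1.75 ± 0.23 higher with the vitamins than with RANKL (adjusted p = 0.0012). The vitamins differed from PBS by 0.06 ± 0.22 (adjusted p = 0.86). This was the only fall of the 3 with RANKL that passed under all 16 alternatives. P4ha1 was at 13.3 to 19.0 FPKM with PBS, 10.9, 11.4 and 13.7 with RANKL, and 20.4, 30.5 and 21.8 with the vitamins, and rose by 1.14 ± 0.18 against RANKL (adjusted p = 0.0024) and 0.62 ± 0.18 against PBS (adjusted p = 0.021). The latter was lost without PBS replicate 1 or 2 (adjusted p 0.058 and 0.056).

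Ndrg1, a stress- and hypoxia-induced gene, was at 11.7, 15.1 and 9.92 FPKM with PBS, 11.01, 8.87 and 9.39 with RANKL, and 41.3, 22.3 and 35.5 with the vitamins. It rose without overlap by 1.93 ± 0.28 against RANKL (adjusted p = 0.0017) and 1.49 ± 0.27 against PBS (adjusted p = 0.0030). Kdm3a, a histone demethylase gene, was at 6.66 to 7.73 with RANKL and 15.5, 8.24 and 14.9 with the vitamins. Its rise of 0.99 ± 0.27 (adjusted p = 0.021) was lost without any of the 3 RANKL libraries or vitamin replicate 1 or 3 (adjusted p 0.052 to 0.073). Against PBS it was 0.57 ± 0.27 (adjusted p = 0.12), and 0.85 ± 0.14 without vitamin replicate 2 (adjusted p = 0.0010).

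Mxi1, a relative of the Myc partners that opposes Myc, was the member of this group that fell. It was at 8.16 to 9.55 FPKM with PBS, 7.23, 5.96 and 8.42 with RANKL, and 4.42, 3.97 and 4.18 with the vitamins. The fall was 0.63 ± 0.17 on the log2 scale against RANKL (adjusted p = 0.022), which was lost without RANKL replicate 1 or 3 or vitamin replicate 3 (adjusted p 0.056 to 0.084), and -1.04 ± 0.17 against PBS (adjusted p = 0.0021). Ankrd37, an ankyrin repeat gene, was at 0.967, 0.968 and 1.57 FPKM with PBS and 0.173, 0.644 and 0.251 with the vitamins. It was lower by -1.73 ± 0.55 against PBS (adjusted p = 0.032), and that call was lost without any of the 3 PBS libraries or vitamin replicate 1 or 3 (adjusted p 0.057 to 0.12), and without the filter on low counts (0.056). Without vitamin replicate 2 it was -2.36 ± 0.54 against PBS (adjusted p = 0.0064), and against RANKL it was -0.74 ± 0.54 with that library and -1.37 ± 0.52 without it, neither of which passed. Bnip3, a receptor for mitochondrial turnover, passed in no comparison, at 11.8 to 17.1 FPKM in all libraries. Adm was at 0 in 4 of 9 libraries.

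**Figure D4:**
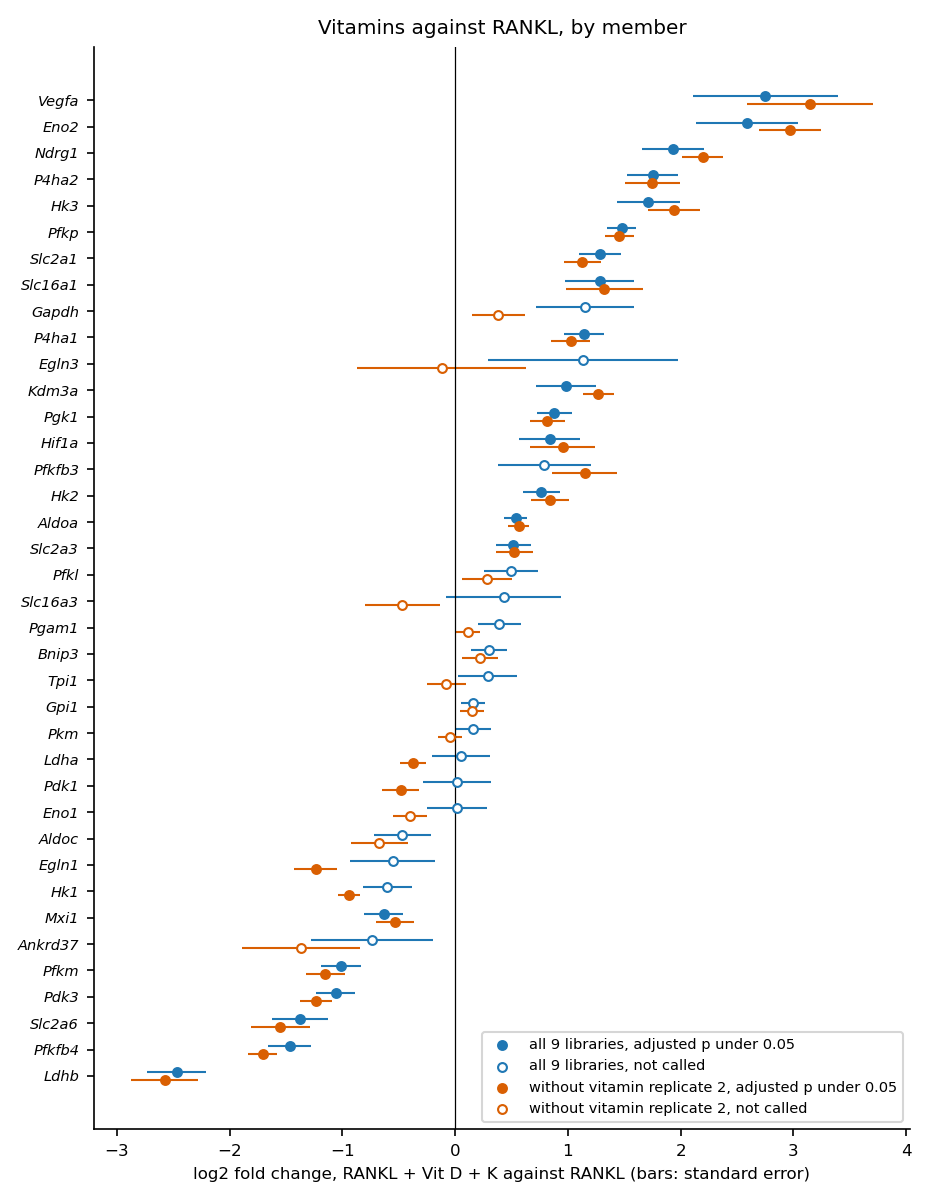
Log2 fold change of the 38 members tested, RANKL + Vit D + K against RANKL, with standard errors, from all 9 libraries (blue) and without vitamin replicate 2 (orange). Filled points passed an adjusted p of 0.05 in edgeR. Vegfa (2.75) and Ldhb (-2.47) are at the ends, and Egln1, Hk1, Pdk1 and Ldha become filled on the lower side without that library.

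Without vitamin replicate 2, all 21 calls of the vitamins against RANKL were kept and 5 were added, Pfkfb3 as higher and Egln1, Hk1, Ldha and Pdk1 as lower. For RANKL against PBS the 3 calls were kept and Eno1, Ldha, Pdk1 and Pdk3 were added as higher. For the vitamins against PBS the 15 calls were kept and 5 were added, Kdm3a and Vegfa as higher and Egln1, Hk1 and Pdk3 as lower. Vitamin replicate 2 was also the library with the largest share of reads in the members, 1.31% of its counts, where the other vitamin libraries had 0.925% and 0.965%, the RANKL libraries 0.803% to 0.966% and the PBS libraries 0.748% to 0.811%. It was the highest of its group for 25 of the 38 members and for 44.5% of all genes tested. Other libraries of a group also differed across the members, since PBS replicate 3 was the highest of its group for 29 of 38 members (32.9% of all genes) and RANKL replicate 2 the lowest for 22 (43.4% of all genes).

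Since FPKM is scaled to transcript length, the share of each isozyme in its family could be compared between groups, in 21 comparisons of 7 shares. Groups did not overlap in 15 of the 21, each with an exact two-sided permutation p of 0.1, the smallest possible with 3 against 3, and 0.14 after Benjamini-Hochberg adjustment over the 21. The FPKM of single genes did not overlap for 35.2%, 46.2% and 52.5% of all genes in the 3 comparisons, and shares of other families were not computed. The 21 are not independent, since Hk2 and Hk3 are of the same family and the comparisons share libraries. Slc2a1 made up 56.1% ± 7.18 (SD, n = 3) of the FPKM of the 3 transporters with PBS, 41.6% ± 4.46 with RANKL and 78.9% ± 2.05 with the vitamins. Pfkp made up 20.4% ± 2.07, 29.1% ± 4.77 and 54.2% ± 5.62 of the phosphofructokinases. Both differed without overlap in each comparison, so that with the vitamins the platelet-type subunit had the largest share of its family. Ldhb was 10.0% ± 0.377 of lactate dehydrogenase FPKM with PBS, 7.53% ± 2.98 with RANKL and 1.48% ± 0.428 with the vitamins, also without overlap, and in vitamin replicate 2, where Ldha was high, it was 1.03%.

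Hk3 took 81.2% ± 6.44 of hexokinase FPKM with the vitamins, against 60.8% ± 5.09 with RANKL and 59.2% ± 8.93 with PBS. The share of Hk2 was 11.9% ± 2.03 with the vitamins, 16.6% ± 3.87 with RANKL and 23.6% ± 6.08 with PBS, and overlapped between the vitamins and RANKL but not between the vitamins and PBS, where the levels of Hk2 did overlap. P4ha2 made up 13.4% ± 0.303 of its pair with PBS, 6.27% ± 0.663 with RANKL and 9.50% ± 1.51 with the vitamins, without overlap in any comparison. The share of Slc16a3 among the lactate carriers overlapped in every comparison.

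**Figure D5:**
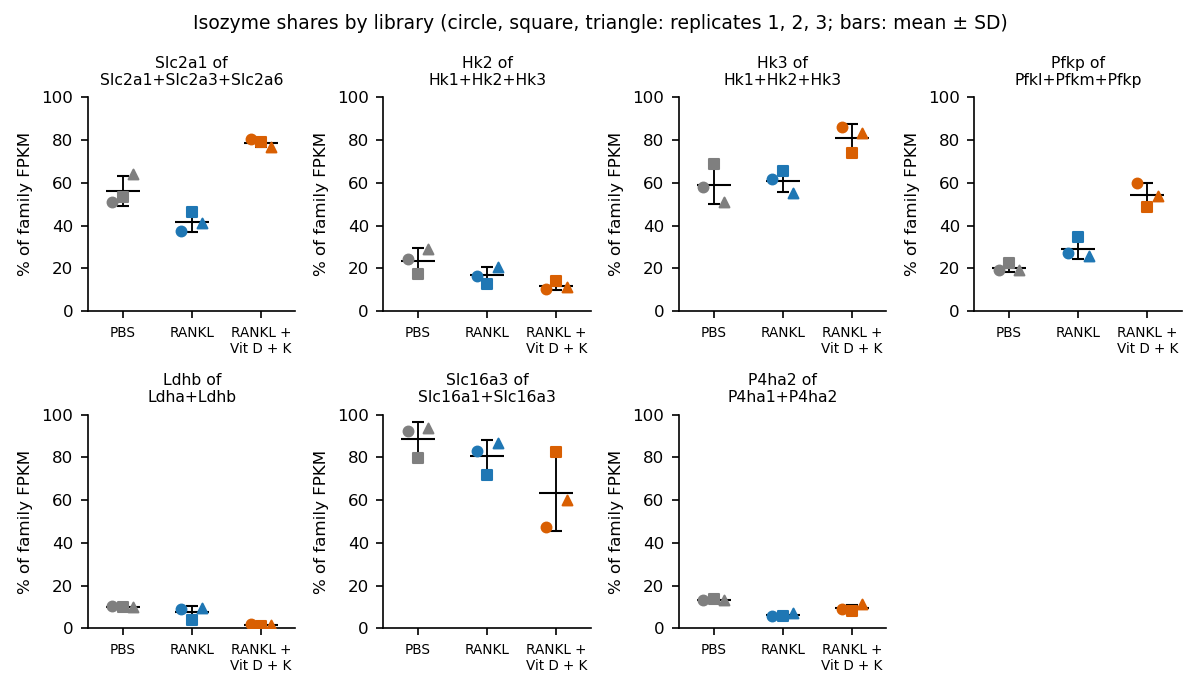
Share of 1 isozyme in the summed FPKM of its family (vertical axes, 0 to 100%) in each library. Circles, squares and triangles are replicates 1, 2 and 3, and bars are the mean and SD of 3 libraries. The shares of Slc2a1, Hk3 and Pfkp are highest and that of Ldhb is lowest with RANKL + Vit D + K, and the share of Slc16a3 overlaps between groups.

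Further genes of the same pathways were read from the same fit. The shares called are set beside those of all genes, which were 33.7% for the vitamins against RANKL (16.4% higher and 17.2% lower) and 3.61% for RANKL against PBS. In the latter, 3163 of 17002 genes had an unadjusted p under 0.05 in edgeR, and DESeq2 called 1056 higher and 643 lower of 16973. Of 10 other regulators of HIF, 3 rose with the vitamins against RANKL and 1 fell, or 40% called, near the 33.7% of all genes. None passed in edgeR for RANKL against PBS, where 2 were lower at an unadjusted p under 0.05 and DESeq2 and limma called 0. Those that rose were Siah2, an E3 ubiquitin ligase gene (0.88 ± 0.13), Cul2, which encodes the scaffold of the von Hippel-Lindau ligase (0.87 ± 0.19), and Arnt, the constant partner of HIF (0.95 ± 0.25). Arnt was at 9.183 to 9.955 FPKM with RANKL and 19.7, 10.3 and 18.6 with the vitamins, where replicate 2 lay within the PBS range of 9.86 to 10.43. Egln2, another HIF prolyl hydroxylase gene, fell by 0.46 ± 0.11 on the log2 scale. Of 18 further hypoxia response genes tested, 6 rose and 2 fell with the vitamins against RANKL, or 44.4% called against 33.7% of all genes. None passed in edgeR for RANKL against PBS, where 2 were higher and 2 lower at an unadjusted p under 0.05. DESeq2 called Bhlhe40 and Fam162a higher and Wsb1 lower. Of these, limma on log2(FPKM + 0.1) called Bhlhe40 and Wsb1, and limma on log2(FPKM + 1) called only Wsb1. Ero1l, an oxidase of protein folding, went from 10.9 to 12.5 FPKM with RANKL to 63.1, 48.1 and 62.1 with the vitamins (2.45 ± 0.19, adjusted p = 0.00023). Those that fell were Zfp395, a zinc finger gene, from 4.14 to 5.27 FPKM with RANKL to 0.384, 1.72 and 0.647 with the vitamins (-2.29 ± 0.42, adjusted p = 0.0047), and Pfkfb2, a relative of Pfkfb3 and Pfkfb4 (-0.57 ± 0.15, adjusted p = 0.018). Hilpda, a lipid droplet gene, rose by 2.20 ± 0.43 (adjusted p = 0.0056), and Bhlhe40, a transcriptional repressor gene, by 2.67 ± 0.57 (adjusted p = 0.0083). Bhlhe40 was at 10.5, 16.4 and 9.4 FPKM with RANKL and 104, 18.7 and 76.6 with the vitamins, so vitamin replicate 2 lay just above RANKL.

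At the branch from glycolysis into the mitochondrion, 2 of 10 genes rose and 2 fell with the vitamins against RANKL, or 40% called, near the 33.7% of all genes. Pdp1, the phosphatase that switches pyruvate dehydrogenase on, was at 4.59 to 4.83 FPKM with RANKL and 46.5, 17.3 and 41.4 with the vitamins (3.07 ± 0.37, adjusted p = 0.00090). Pdk2, a kinase that switches it off, was at 4.27 to 5.98 with RANKL and 0.543, 1.26 and 0.690 with the vitamins (-2.58 ± 0.28, adjusted p = 0.00061). The carrier gene Mpc2 also fell (-0.93 ± 0.18, adjusted p = 0.0060), and Dld rose (0.43 ± 0.14, adjusted p = 0.042). With the vitamins against PBS, 6 of the 10 were higher and 2 lower, or 80% called against 40.8% of all genes. With RANKL against PBS, Pdha1, a pyruvate dehydrogenase subunit gene, rose by 0.56 ± 0.09 (adjusted p = 0.015) and Mpc1, the other pyruvate carrier gene, fell by 0.81 ± 0.18 (adjusted p = 0.040). At an unadjusted p under 0.05 in edgeR, 6 of the 10 were higher and 1 lower with RANKL. DESeq2 called 3 higher (Dlat, Mpc2 and Pdha1) and 1 lower. Limma called 2 higher and 1 lower on log2(FPKM + 0.1), and 1 and 1 on log2(FPKM + 1).

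In the pentose phosphate pathway, which branches off after the hexokinase step, Pgd and Taldo1 fell with RANKL against PBS, by 0.82 ± 0.14 (adjusted p = 0.018) and 0.49 ± 0.10 (adjusted p = 0.030), and the other 6 of 8 did not pass. With the vitamins against RANKL, Rpe rose and G6pdx fell, or 25% called against 33.7% of all genes. Of 3 gluconeogenesis genes tested, Pck2, the mitochondrial phosphoenolpyruvate carboxykinase, had an FPKM of 6.95, 8.46 and 7.93 with PBS, 3.85, 4.81 and 4.68 with RANKL, and 17.6, 20.7 and 16.9 with the vitamins. It fell by 0.93 ± 0.12 with RANKL (adjusted p = 0.0053) and was 2.19 ± 0.12 higher with the vitamins than with RANKL (adjusted p = 9.0e-05). Pcx rose by 1.03 ± 0.17 with the vitamins (adjusted p = 0.0027).

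Another list held 6 genes, the glucose-sensing arrestins and factors together with Myc. Of these, 2 rose (Myc and Mlx) and 2 fell with the vitamins against RANKL, where 16.4% of all genes rose and 17.2% fell. Mlx rose by 0.35 ± 0.11 (adjusted p = 0.036), with FPKM that overlapped between the groups. Txnip, an arrestin that restrains glucose uptake, was at 112 to 126 FPKM with RANKL and 2.88, 14.6 and 4.74 with the vitamins, a fall of 3.92 ± 0.48 on the log2 scale (adjusted p = 0.00094). Its relative Arrdc4 fell by 1.32 ± 0.19 (adjusted p = 0.0016). Myc, a transcription factor gene, was at 0.217, 0.636 and 0.345 FPKM with PBS, 4.005, 14.04 and 2.57 with RANKL, and 48.1, 18.5 and 25.0 with the vitamins. It rose by 3.93 ± 0.72 with RANKL (adjusted p = 0.022) and by a further 2.37 ± 0.65 with the vitamins (adjusted p = 0.022). Of 11 further genes related by family or reaction to glycolytic enzymes and sugar carriers, 1 rose (Pgam5) and 3 fell (Pgam2, Bpgm and Slc2a9) with the vitamins against RANKL, or 36.4% called, near the 33.7% of all genes. Pgam5 is a mitochondrial protein phosphatase named for its similarity to phosphoglycerate mutase, and Slc2a9 is best known as a urate carrier. None passed in edgeR for RANKL against PBS, where Slc2a9 was lower at an unadjusted p under 0.05 and was called by DESeq2, and limma called 0.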

How the data were processed

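RNA from 9 BMDM libraries was selected with oligo(dT) and sequenced as paired-end reads on an Illumina NovaSeq instrument. The authors deposited 1 table with whole-number counts per gene, not normalized, and FPKM values, which the authors scaled to transcript length and library size. The submitters' processing notes name cutadapt 1.9, HISAT2 2.0.4, StringTie 1.3.4d and edgeR, and the human build hg38, whereas gene positions in the table match mouse GENCODE M21 (GRCm38). The use of strand and of reads with several matches is not given in the sources used here, so genes with close copies or overlapping neighbours are uncertain.

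Samples were grouped by their labels. The 39 members, their roles and the further gene lists were chosen with earlier results of these data known. Counts were tested with edgeR 4.0.16 in R 4.3.3 (filterByExpr, TMM, quasi-likelihood test, 1 model of 9 libraries), and p-values were adjusted by Benjamini-Hochberg over the 17002 of 28379 genes that passed the filter, with a threshold of 0.05. The SE of a log2 fold change was its absolute value over the root of F. The study's methods name edgeR, and the model of all groups was set for this report. All members are named or counted; full statistics were set for at most 12 called members per direction without overlap, and for Slc2a1, Hk2, Gapdh, Pkm, Ldha, Pfkfb3, Pdk1, Hif1a, Egln3 and Vegfa. Other members with values in the text were chosen after these were seen. Isozyme shares were compared by exact permutation (SciPy 1.17.1). Scripts were tested on simulated counts.

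Same-numbered PBS and RANKL libraries deviated together (correlations 0.122, 0.219 and 0.155 over genes), so for RANKL against PBS blocked values stand beside results they change. The vitamin libraries deviated together less with same-numbered libraries of RANKL (0.00625, 0.0428 and 0.107) and PBS (-0.0216, 0.0217 and 0.0237). Whether their numbers pair is uncertain, so calls that the block gained stand beside those results and in the closing section. Alternatives were median-of-ratios size factors, DESeq2 1.42.0, no filter on low counts, limma 3.58.1 on log2(FPKM + 0.1) and log2(FPKM + 1), the 2 groups alone, the block, and each library left out.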

Additional observations from a re-analysis of the deposited data

How the results depend on the processing

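For the vitamins against RANKL, 16 to 26 members were called under the alternatives, against 21. For RANKL against PBS, with 0 members higher and 3 lower, 1 was higher with DESeq2 and 4 with the 2 groups alone, 1 was lower without the filter on low counts, and leaving out 1 library gave 0 to 4 higher and 1 to 3 lower. The 4 higher were found without vitamin replicate 2. The 6 lower calls of the vitamins against RANKL became 5 to 10 with 1 library left out (10 without vitamin replicate 2), and the 9 higher calls against PBS became 7 to 15 (15 without vitamin replicate 1). With the replicate number as a block there were 3 calls for RANKL against PBS (Slc2a1 lost, Vegfa gained as lower), 23 against 21 for the vitamins against RANKL (Gapdh gained at an adjusted p of 0.040 and Pfkfb3 at 0.026) and 18 against 15 for the vitamins against PBS (Eno1 gained at 0.041, Hif1a at 0.021 and Vegfa at 0.0037); the block changed no other call.

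Directions changed among log2 fold changes that were not called. For RANKL against PBS, Pkm was 0.0206 without the filter, 0.0793 and 0.0792 with limma, 0.0145 with the 2 groups alone and -0.124 to 0.0255 with 1 library left out, and Hif1a was -0.497 to 0.0454. For the vitamins against RANKL, Pkm was -0.0095 and -0.0094 with limma and -0.0481 to 0.266 with 1 library left out. Ldha was -0.18 and -0.17 with limma, -0.0038 with the block and -0.37 to 0.25 with 1 library left out. Pdk1 was -0.0128 without the filter, -0.24 and -0.21 with limma, -0.054 with the block and -0.484 to 0.275, and Egln3 was -0.12 to 1.79. For the vitamins against PBS, Hk2 was -0.0138 and -0.0134 with limma and -0.034 to 0.146 with 1 library left out, Pkm -0.0885 to 0.282, Pfkfb3 -0.0655 to 0.52 and Egln3 -1.72 to 0.23. The share of Hk3 differed between RANKL and PBS by -2.47 (without PBS replicate 3) to 6.39 percentage points (without PBS replicate 2) and by -0.706 without RANKL replicate 2, compared with 1.62 over all libraries. Limma on log2(FPKM + 0.1) moved the median of all genes for the vitamins against RANKL from -0.04 to -0.16, and the genes called from 2796 higher and 2929 lower to 2184 and 3953. The causes were not tested. With 3 libraries per group, a change of Slc2a1 or Hk2 with RANKL lies at the limit of what the test calls.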
